A study of Arabidopsis thaliana with 16 samples.

Results

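The data were read for 10 genes of flavonoid and anthocyanin synthesis in *Arabidopsis thaliana* seedlings, out of the 32833 genes of the count table. They were chosen by name for their place in the pathway, with earlier results of these data known. They comprise 4 enzymes of the early steps, *CHS* (AT5G13930), *CHI* (AT3G55120), *F3H* (AT3G51240) and *F3'H* (AT5G07990), and the flavonol branch enzyme *FLS1* (AT5G08640). The late steps have 2 enzymes, *DFR* (AT5G42800) and *LDOX* (AT4G22880), and the regulators are *TT8* (AT4G09820), *PAP1* (AT1G56650) and *PAP2* (AT1G66390). The seedlings were 10 days old and of either the *fer-4* T-DNA insertion line (*fer*), which lacks the receptor kinase FERONIA, or the Col-0 wild type (WT). All had been moved from plates into liquid medium (half-strength MS) and kept there for 2 h. They then received arabidopside A, a galactolipid that carries the jasmonate precursor OPDA, at 12.5 µM for 2 h, or were left untreated as controls (the sample titles write Aradopside). The 4 groups were therefore *fer* arabidopside, *fer* control, WT arabidopside and WT control, with 4 biological replicates each, 16 libraries in all. Nothing in the labels names a solvent given to the controls, and *fer-4* was the only mutant allele, so effects of the insertion line and of the loss of FERONIA cannot be told apart.

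Flavonoids are built from the phenylpropanoid p-coumaroyl-CoA. Chalcone synthase (CHS), chalcone isomerase (CHI), flavanone 3-hydroxylase (F3H) and flavonoid 3′-hydroxylase (F3'H) make dihydroflavonols, the shared early steps, and flavonol synthase (FLS1) draws these off to flavonols. Dihydroflavonol reductase (DFR) and leucoanthocyanidin dioxygenase (LDOX) carry them on to anthocyanidins, the late steps. In Arabidopsis the late genes are known to be switched on by complexes of an R2R3-MYB factor such as PAP1 or PAP2, a bHLH factor such as TT8 and the WD40 protein TTG1, while the early genes answer to other MYB factors, MYB11, MYB12 and MYB111. Jasmonate treatment is known to promote anthocyanin accumulation in seedlings.

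The sequences before the annotated starts show how the promoters of early and late members compare, since bHLH factors bind CANNTG letters, among them the G-box CACGTG, and MYB factors of this pathway bind AC-rich letters. The 250 bases upstream of each gene start were read from the RefSeq TAIR10.1 genome by locus identifier. They are printed for 4 genes, 5′ to 3′ on the strand of the gene, with CACGTG and 4 MYB forms in capitals. The MYB forms were ACCTACC with its variant ACCAACC, and similarly ACCTAAC with its variant ACCAAAC, and all were searched on both strands. The printed promoters are those of the first enzyme of the pathway, both late enzymes and the regulator with the largest response to arabidopside A.
*CHS*, chr5:4488226-4488475, plus strand: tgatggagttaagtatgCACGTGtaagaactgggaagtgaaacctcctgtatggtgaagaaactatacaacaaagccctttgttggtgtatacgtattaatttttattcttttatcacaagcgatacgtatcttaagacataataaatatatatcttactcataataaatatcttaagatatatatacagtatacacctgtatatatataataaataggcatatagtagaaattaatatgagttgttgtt
*DFR*, chr5:17166033-17166282, minus strand: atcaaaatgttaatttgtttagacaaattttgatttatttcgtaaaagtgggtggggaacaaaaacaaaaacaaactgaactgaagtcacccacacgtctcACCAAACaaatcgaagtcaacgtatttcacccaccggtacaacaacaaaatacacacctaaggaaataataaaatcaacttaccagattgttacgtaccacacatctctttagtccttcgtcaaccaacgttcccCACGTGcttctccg
*LDOX*, chr4:12006210-12006459, minus strand: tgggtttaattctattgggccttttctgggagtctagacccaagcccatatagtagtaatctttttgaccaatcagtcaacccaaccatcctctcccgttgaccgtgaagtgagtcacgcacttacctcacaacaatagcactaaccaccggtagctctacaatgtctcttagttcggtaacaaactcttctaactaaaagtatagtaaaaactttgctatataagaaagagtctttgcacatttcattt
*PAP1*, chr1:21235293-21235542, minus strand: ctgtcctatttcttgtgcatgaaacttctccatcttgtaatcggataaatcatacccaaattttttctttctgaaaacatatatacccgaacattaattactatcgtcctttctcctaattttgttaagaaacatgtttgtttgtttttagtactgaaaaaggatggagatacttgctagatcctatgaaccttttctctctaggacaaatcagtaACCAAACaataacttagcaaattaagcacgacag

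CACGTG was found in 4 of the 10 member promoters, against 6.49% of 27443 promoters of protein-coding genes. The 4 were *CHS*, *F3H*, *DFR* and *PAP2*, so that the letters occurred before early, late and regulator genes. At least 1 of the 4 MYB forms was found in *FLS1*, *DFR*, *TT8* and *PAP1*, again 4 of 10, against 13.7% of all promoters. The broader CANNTG, which contains CACGTG, was found in 7 of the 10, against 55.3% of all. *DFR* held both CACGTG, at bases -14 to -9, and ACCAAAC, at bases -149 to -143, whereas *LDOX* held none of these in the window. These are matches of letters only and carry no information on binding.

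Transcripts were counted by QuantSeq, which reads 1 fragment near the 3′ end of each mRNA, so that counts are not scaled by transcript length. Levels are given as CPM, the counts scaled to a common library total after trimmed-mean (TMM) adjustment. The libraries held 2843653 to 26358335 counts, and all but *fer* arabidopside replicate 2 held at most 6860427. *FER* itself averaged 0.960 ± 0.973 CPM in *fer* arabidopside and 1.53 ± 1.04 CPM in *fer* control, against 114 ± 21.3 CPM in WT arabidopside and 116 ± 13.6 CPM in WT control (SD, n = 4 each), as the labels state. The jasmonate-responsive repressor gene *JAZ5* was higher after arabidopside A by 3.94 on the log2 scale in WT (adjusted p = 9.55e-10) and by 0.87 in *fer* (adjusted p = 0.012, both edgeR). With *JAZ10* and *OPR3*, checked as well, 3 genes were called higher after treatment in both genotypes. Without arabidopside A, all 3 were already called higher in *fer* than in WT. For 2 of them the response in *fer* was called smaller than that in WT. *fer* libraries of replicates 1 and 2 deviated together in both treatments, and stood apart from those of replicates 3 and 4.

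**Figure D1:**
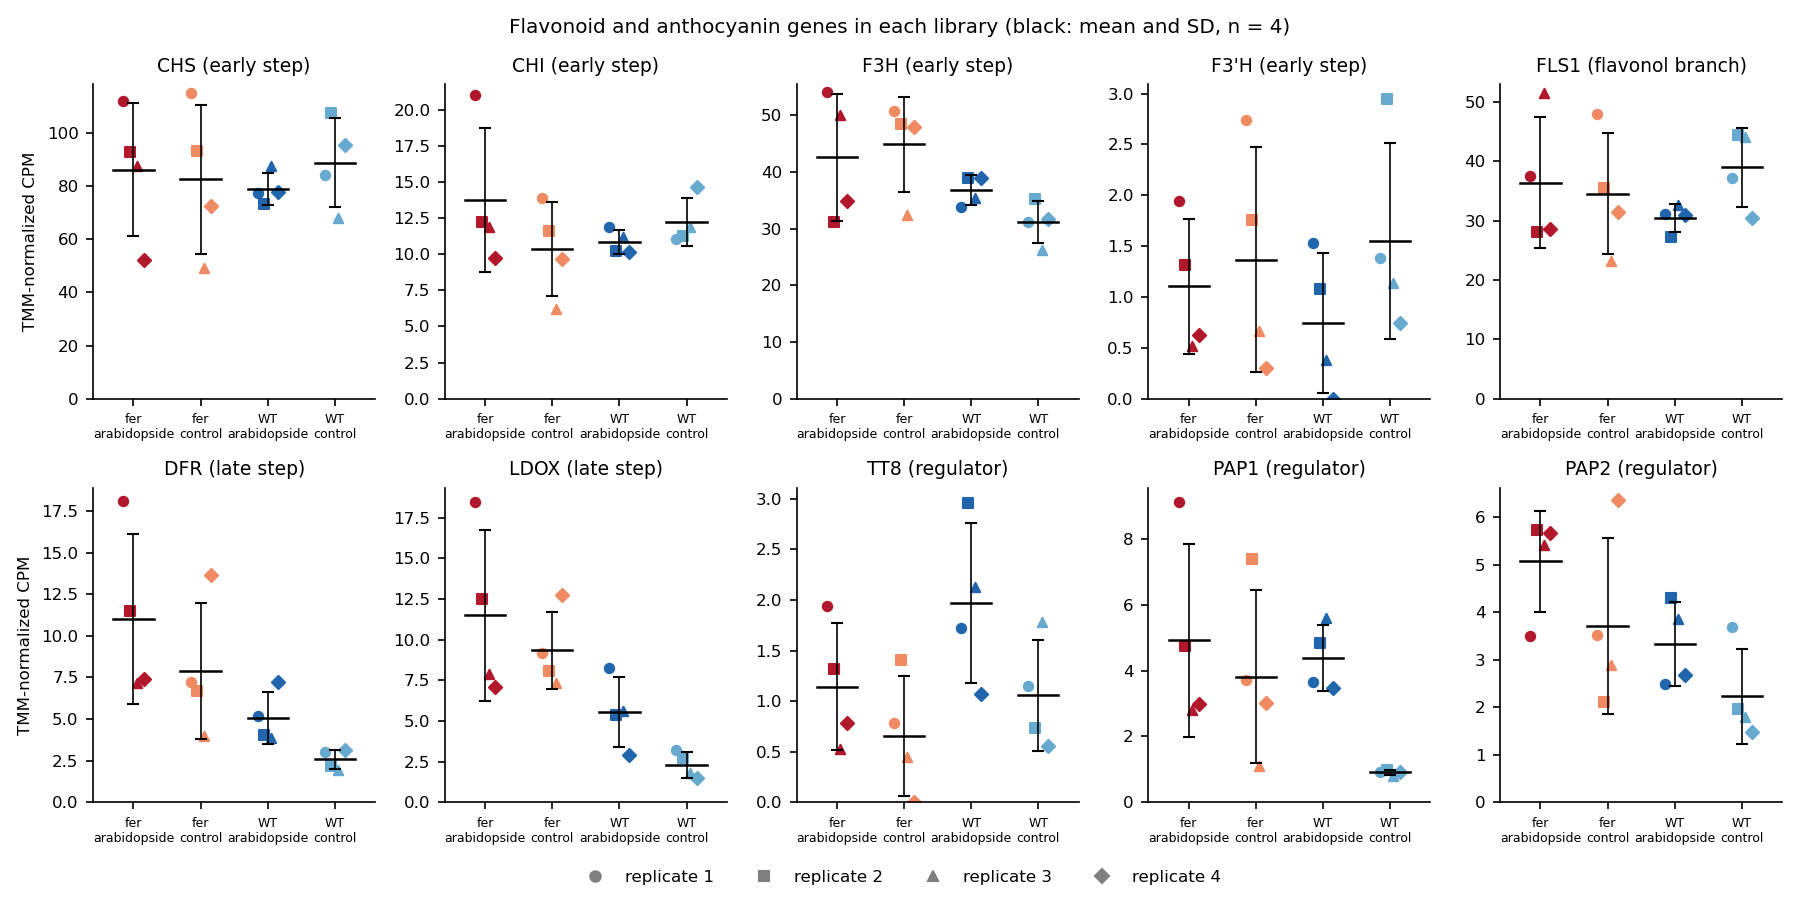
TMM-normalized CPM (vertical axes, from 0) of the 10 genes in each of the 16 libraries, by group, with the replicate number as symbol and the mean and SD in black. *CHS*, *CHI* and *FLS1* overlapped among all groups. *DFR*, *LDOX* and *PAP1* had their lowest means in WT control, and so had the early gene *F3H* and the regulator *PAP2*.

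In untreated seedlings, the late genes were higher in *fer* than in WT, whereas *CHS*, *CHI* and *FLS1* did not pass the test. *DFR* was 2.99-fold and *LDOX* 4.08-fold higher in *fer* controls, and *F3H* was 1.43-fold higher. In all, 3 of the 7 members tested were called higher and 0 lower (edgeR quasi-likelihood test, adjusted p below 0.05). Of all 17001 genes tested in this comparison, 15.7% were called higher and 11.5% lower, 27.2% together. *F3'H*, *TT8* and *PAP1* fell below the filter on low counts.

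*DFR* had 7.24, 6.68, 3.99 and 13.6 CPM in *fer* control replicates 1 to 4, against 3.00, 2.21, 1.95 and 3.15 CPM in WT control replicates 1 to 4. Every *fer* control library was above every WT control library, with *fer* replicate 3 closest to them. The WT control values rest on only 9 to 17 counts per library. A filter of at least 10 counts in every library removed the gene. The difference was 1.58 ± 0.38 on the log2 scale (SE, adjusted p = 0.010).

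*LDOX* had 9.19, 8.09, 7.32 and 12.7 CPM in *fer* control replicates 1 to 4, against 3.23, 2.70, 1.79 and 1.48 CPM in WT control replicates 1 to 4. The groups were well apart, with the lowest *fer* value, 7.32 CPM, well above the highest WT value, 3.23 CPM. The WT control values rest on only 8 to 14 counts per library, so that the gene passed the filter through the *fer* libraries. The call of *LDOX* is therefore given as a description. The difference was 2.03 ± 0.31 on the log2 scale (SE, adjusted p = 9.87e-04), and 2.03 without the filter (edgeR, adjusted p = 3.36e-04). The share of genes with all *fer* control libraries above all WT control libraries was 16.2%. In the final 400 bases of its transcripts, 52 of the 393 stretches of 50 bases of *LDOX* occur more than once in the genome, against 3 of 351 in *DFR* and 0 of 351 in *CHS*, so part of its reads may not be assigned uniquely.

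*F3H* was the exception among the early genes, with 50.7, 48.5, 32.4 and 47.9 CPM in *fer* control replicates 1 to 4, against 31.1, 35.3, 26.3 and 31.7 CPM in WT control replicates 1 to 4. The *fer* libraries of replicates 1, 2 and 4 were above all WT controls and replicate 3 lay within their range. The difference of 0.52 ± 0.17 on the log2 scale (SE, adjusted p = 0.038) was close to the threshold and was lost in 9 of 19 alternatives, among them the omission of any 1 WT control library (adjusted p 0.052 to 0.121) and of *fer* control replicate 1 or 4 (0.076 and 0.091). The gene overlaps the noncoding RNA gene AT3G51238 on the opposite strand by 1588 bases. That gene had 0 to 6 counts per library, and the strand setting of the counting is not given in the sources used here.

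*CHS* had 115, 93.2, 49.2 and 72.4 CPM in *fer* control replicates 1 to 4, against 84.1, 107, 67.9 and 95.5 CPM in WT control replicates 1 to 4. The groups overlapped, with replicates 1 and 2 the high *fer* libraries, and the difference was -0.12 ± 0.23 on the log2 scale (SE, adjusted p = 0.751). *CHI*, at 6.2 to 13.9 CPM in *fer* controls and 11.1 to 14.6 CPM in WT controls, differed by -0.25 ± 0.24 (adjusted p = 0.479), and *FLS1*, at 23.3 to 47.9 CPM in *fer* controls and 30.4 to 44.4 CPM in WT controls, by -0.18 ± 0.21 (adjusted p = 0.562). Without *fer* replicates 1 and 2, *CHS* and *FLS1* were called lower in *fer* controls, by -0.52 (adjusted p = 0.032) and -0.49 (adjusted p = 0.039) on the log2 scale, and *F3H* was no longer called (0.39, adjusted p = 0.080). Without *fer* replicates 3 and 4, *CHS* differed by 0.23 (adjusted p = 0.332). *DFR* and *LDOX* were called higher under both omissions, and in all 18 alternatives in which each was tested.

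Among the regulators, *PAP1*, a MYB activator of the late genes, had 3.72, 7.39, 1.11 and 3.03 CPM in *fer* control replicates 1 to 4, against 0.922, 0.981, 0.812 and 0.927 CPM in WT control replicates 1 to 4. These WT values rest on 4, 4, 5 and 5 counts, and *fer* control replicate 3 also had only 5. All *fer* control libraries were above all WT control libraries, but the gene was below the filter for this comparison. It entered the alternatives with a wider filter, where the difference was 1.99 on the log2 scale with all 16 libraries (adjusted p = 0.011), 1.98 without the filter (adjusted p = 0.015) and 2.04 with DESeq2 (adjusted p = 0.00729). Of the omissions of single libraries, those that tested it were the WT controls, where it was called without replicate 1, 2 or 4 (adjusted p 0.045 to 0.049) and not without replicate 3 (1.91, adjusted p = 0.057), and *fer* control replicate 3, where it was called (2.31, adjusted p = 0.00271). It was called also without *fer* replicates 3 and 4 (adjusted p = 4.69e-04) and was below the filter without *fer* replicates 1 and 2. In the alternatives that kept this kind of filter, *PAP1* passed only through libraries where it was higher. Its calls in this comparison are therefore given as a description. *PAP2*, a close relative of *PAP1*, ranged over 2.1 to 6.4 CPM in *fer* controls and 1.5 to 3.7 CPM in WT controls, and did not pass the test (0.74 ± 0.42, adjusted p = 0.218). *TT8* had 0 to 4 counts per *fer* control library and 3 to 11 per WT control library, and *F3'H* had 1 to 14 and 4 to 12, so that no difference was detectable at this depth.

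The relation between late and early steps can be read within each library, where no scaling between libraries enters. For every 100 counts of *CHS*, *CHI*, *F3H* and *F3'H* together, *DFR* and *LDOX* together had 19.3, 17.4, 10.0 and 14.9 counts in *fer* arabidopside replicates 1 to 4 and 9.02, 9.52, 12.8 and 20.2 in *fer* control replicates 1 to 4. The value was 10.8, 7.63, 7.04 and 8 in WT arabidopside replicates 1 to 4, against 4.87, 3.13, 3.48 and 3.25 in WT control replicates 1 to 4. All 12 libraries of the other 3 groups were above all 4 WT controls, whose values rest on only 20 to 27 late counts per library. The means were 15.4 ± 4.05 in *fer* arabidopside, 12.9 ± 5.17 in *fer* control, 8.36 ± 1.66 in WT arabidopside and 3.68 ± 0.807 in WT control (SD, n = 4 each). *FLS1* per 100 early counts, in contrast, averaged 25.96 ± 7.03 in *fer* arabidopside, 24.9 ± 1.68 in *fer* control, 23.9 ± 1.31 in WT arabidopside and 29.9 ± 8.19 in WT control, with overlapping libraries. *CHS* gave most of the early counts in every library, for example 365 of 554 in WT control replicate 1. The late ratio reuses the *DFR* and *LDOX* counts tested above and is no separate support. The 2 ratios are descriptions and were not tested.

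**Figure D2:**
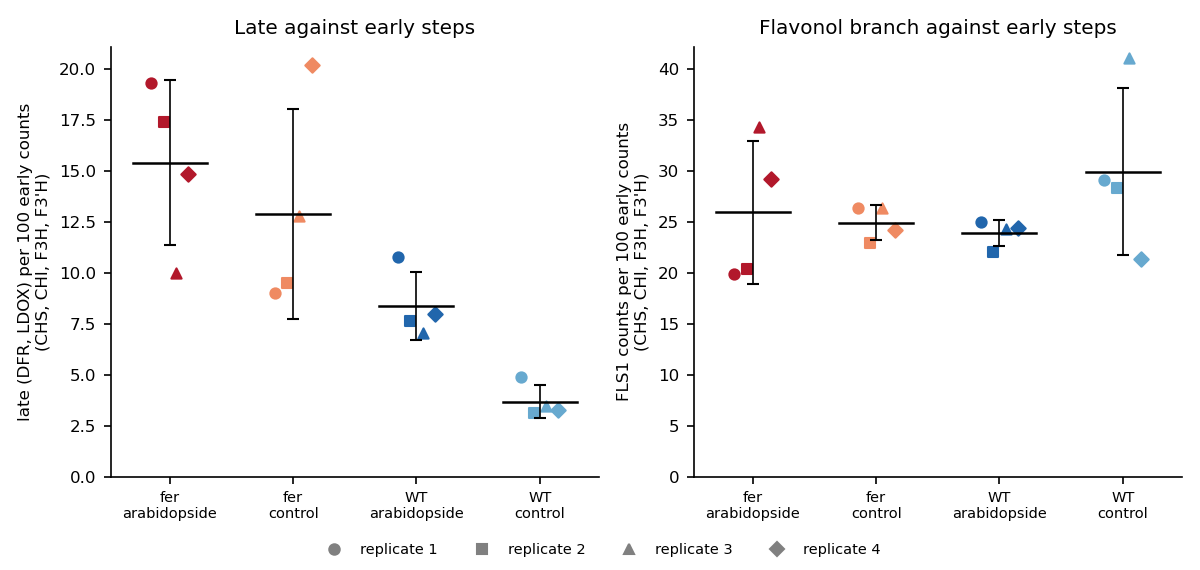
Raw counts of *DFR* and *LDOX* (left) and of *FLS1* (right) per 100 raw counts of *CHS*, *CHI*, *F3H* and *F3'H* in each library (vertical axes, from 0), by group, with mean and SD (n = 4) in black. On the left all WT control libraries, at 3.13 to 4.87, lie below all others, and on the right the 4 groups overlap.

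In WT seedlings, 2 h of arabidopside A raised *PAP1* 4.78-fold, and no other member passed the test. Of the 8 members tested, 1 was called higher and 0 lower, against 1.84% and 0.132% of all 18132 genes tested (1.97% together). *PAP1* had 3.65, 4.84, 5.60 and 3.47 CPM in WT arabidopside replicates 1 to 4, against 0.922, 0.981, 0.812 and 0.927 CPM in WT control replicates 1 to 4. The groups were well apart and the treated values rest on 13 to 29 counts per library. The WT control values rest on 4 or 5 counts, so that the gene passed the filter only through the other groups, where it was higher. Its call is therefore given as a description. The difference was 2.26 ± 0.52 on the log2 scale (SE, adjusted p = 0.028). It lost significance without WT arabidopside replicate 2 or 3 or without any 1 WT control library (adjusted p 0.070 to 0.120), and in limma-voom (2.15, adjusted p = 0.141), although its size was at least 2.11 in each of these.

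The late genes were higher in the treated WT libraries in value but not past the threshold. *DFR* had 5.18, 4.04, 3.86 and 7.21 CPM in WT arabidopside replicates 1 to 4, all above the 1.95 to 3.15 CPM of the WT controls, with a difference of 0.97 ± 0.41 on the log2 scale (SE, adjusted p = 0.436). *LDOX* had 8.25, 5.38, 5.60 and 2.94 CPM in WT arabidopside replicates 1 to 4, of which only replicate 4 lay within the range of the WT controls, 1.48 to 3.23 CPM, with a difference of 1.32 ± 0.39 (adjusted p = 0.114). *LDOX* was called when only the 8 WT libraries were fitted (adjusted p = 0.00936). Members with every treated library above every control numbered 2, *DFR* and *PAP1*, against 7.03% of all genes tested.

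The early genes and *FLS1* overlapped between treated and control WT seedlings. *CHS* had 73.2 to 87.5 CPM in WT arabidopside and 67.9 to 107 CPM in WT control, a difference of -0.17 ± 0.24 on the log2 scale (adjusted p = 0.980). *FLS1* had 27.2 to 32.6 CPM in WT arabidopside and 30.4 to 44.4 CPM in WT control (-0.35 ± 0.22, adjusted p = 0.775). *CHI* (-0.17 ± 0.25), *F3H* (0.24 ± 0.18) and *PAP2* (0.59 ± 0.37) did not pass either. *TT8*, the bHLH partner, had 4 to 11 counts per WT arabidopside library and 3 to 11 per WT control library, too few to enter the test.

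In *fer* seedlings, no member passed the test for a response to arabidopside A. Of the 8 members tested 0 were called, against 0.381% of all 18132 genes tested, and 0 had an unadjusted p below 0.05, against 7.89% of all genes. DESeq2, limma-voom and a fit with the replicate number as a block within each genotype also called 0 members, although under that block 187 genes in all were called, against 69 without it. *PAP1* had 9.14, 4.75, 2.79 and 2.99 CPM in *fer* arabidopside replicates 1 to 4, against 3.72, 7.39, 1.11 and 3.03 CPM in *fer* control replicates 1 to 4, a difference of 0.41 ± 0.44 on the log2 scale (SE, adjusted p = 0.882). In both treatments the higher values belonged to replicates 1 and 2.

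*DFR* had 18.1, 11.5, 7.16 and 7.40 CPM in *fer* arabidopside replicates 1 to 4, a difference of 0.50 ± 0.34 on the log2 scale from the *fer* controls (SE, adjusted p = 0.779). *LDOX* had 18.5, 12.5, 7.86 and 7.09 CPM in *fer* arabidopside replicates 1 to 4, a difference of 0.30 ± 0.32 (adjusted p = 0.882). Both were highest in replicates 1 and 2 of *fer* arabidopside, and both differences turned negative without *fer* replicates 1 and 2 (-0.24 for *DFR* and -0.41 for *LDOX*). Without *fer* replicates 3 and 4 they were larger, at 1.03 for *DFR* (adjusted p = 0.084) and 0.79 for *LDOX* (adjusted p = 0.237), and still uncalled. *CHS* (0.06 ± 0.24), *CHI* (0.39 ± 0.24), *F3H* (-0.08 ± 0.18), *FLS1* (0.06 ± 0.21) and *PAP2* (0.47 ± 0.34) lay close to 0 or within 2 SE of it.

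Whether the response differed between genotypes was tested by the interaction term, the response in *fer* minus that in WT. Of the 8 members 0 were called by edgeR or limma-voom, against 0.11% of all genes tested by edgeR. DESeq2 gave an adjusted p for 6 of them, not for *PAP1* or *PAP2*, and called 0. *PAP1* alone had an unadjusted p below 0.05, against 4.9% of all genes, with an interaction of -1.85 ± 0.69 on the log2 scale (unadjusted p = 0.015, adjusted p = 0.970). For *LDOX* the term was -1.02 ± 0.50 and for *DFR* -0.47 ± 0.53 (adjusted p = 1.00 for both). Without *fer* replicates 1 and 2 the terms were -1.70 for *PAP1*, -1.73 for *LDOX* and -1.19 for *DFR*, and without *fer* replicates 3 and 4 they were -1.94, -0.54 and 0.08 for the same genes, all uncalled. The call of *PAP1* in WT and its absence in *fer* is therefore not shown to be a difference between genotypes.

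**Figure D3:**
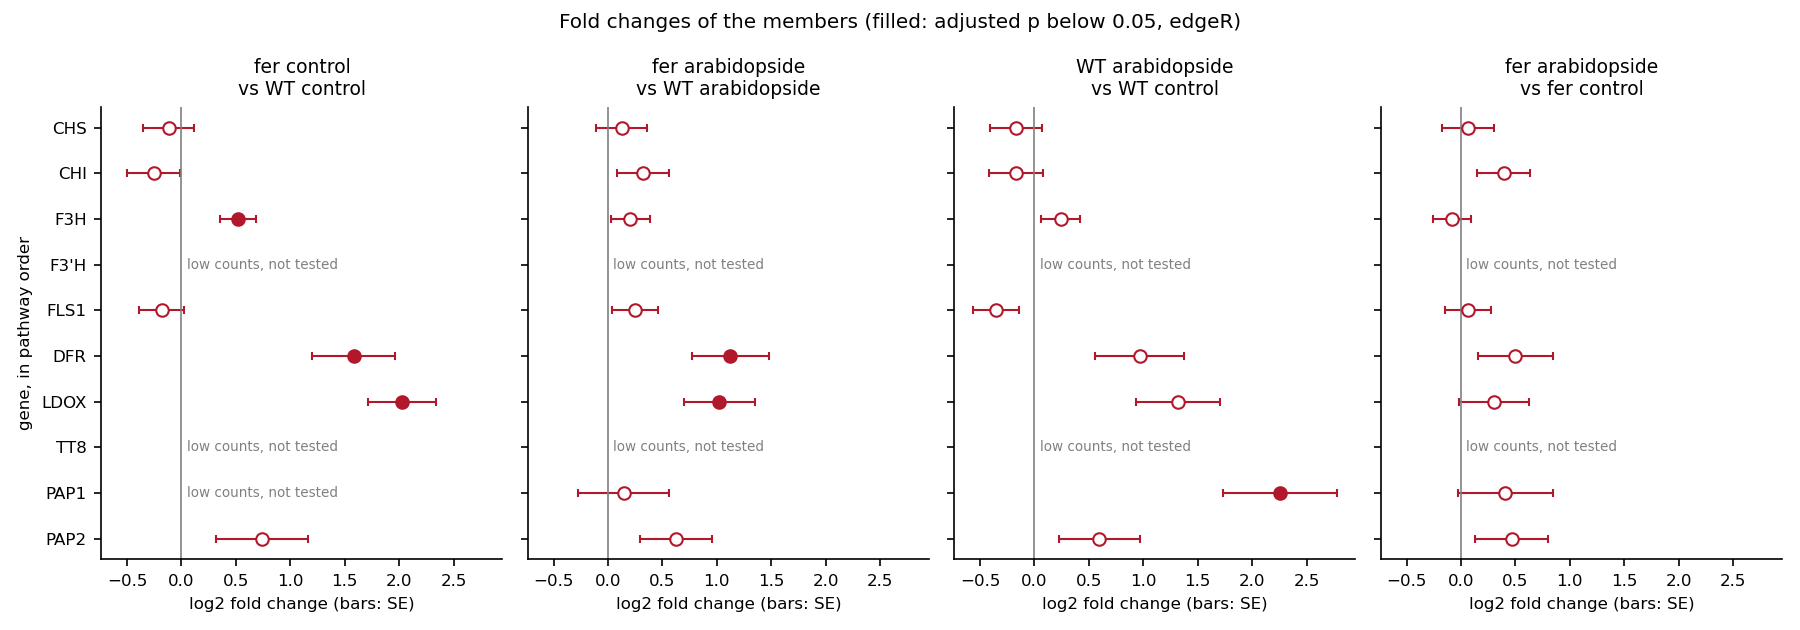
Log2 fold changes (horizontal axes, points) with SE (bars) of the 10 genes in pathway order for 4 comparisons, filled where the adjusted p of edgeR was below 0.05. *DFR* and *LDOX* are filled in both comparisons of *fer* with WT, *F3H* in the control comparison and *PAP1* in the WT response, and *F3'H* and *TT8* had too few counts to be tested.

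Under arabidopside A, *DFR* and *LDOX* were again higher in *fer* than in WT, by 2.18-fold and 2.03-fold. Of the 8 members tested 2 were called higher and 0 lower, against 17.2% and 14% of all genes tested (31.2% together). *DFR* had 18.1, 11.5, 7.16 and 7.40 CPM in *fer* arabidopside replicates 1 to 4, against 5.18, 4.04, 3.86 and 7.21 CPM in WT arabidopside replicates 1 to 4, a difference of 1.12 ± 0.35 on the log2 scale (SE, adjusted p = 0.023). *LDOX* had 18.5, 12.5, 7.86 and 7.09 CPM in *fer* arabidopside, against 8.25, 5.38, 5.60 and 2.94 CPM in WT arabidopside, a difference of 1.02 ± 0.33 (adjusted p = 0.025). The groups overlapped for both genes, and the high *fer* libraries were replicates 1 and 2. Without these, neither gene was called (*DFR* 0.56, adjusted p = 0.242, and *LDOX* 0.43, adjusted p = 0.339). Without *fer* replicates 3 and 4 both were called, at 1.51 for *DFR* (adjusted p = 9.56e-05) and 1.41 for *LDOX* (adjusted p = 3.50e-04). The calls of both were also lost without *fer* arabidopside replicate 1 or WT arabidopside replicate 2 or 3 (adjusted p 0.058 to 0.077). That of *LDOX* was lost also without WT arabidopside replicate 4 (0.077) or *fer* arabidopside replicate 2 (0.055). *PAP1* differed by 0.14 ± 0.42 (adjusted p = 0.825), and *CHS*, *CHI*, *F3H*, *FLS1* and *PAP2* did not pass the test (0.13 to 0.63 on the log2 scale). This comparison shares its treated libraries with the responses above and is no independent support for them. It compares none of the libraries of *fer* control against WT control. Its spread was estimated from all 16 libraries, however, and *fer* replicates deviated together in both treatments. It is therefore not independent of the control comparison either.

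Other genes of the pathway were read from 7 lists of 60 genes in all. In *fer* controls against WT controls, 8 of the 35 tested were called higher and 1 lower, against 15.7% higher and 11.5% lower of all genes tested. In the phenylpropanoid entry, 5 of 8 genes were higher and 0 lower, with a median of 1.85 on the log2 scale against -0.03 over all genes tested. They were *PAL1* and *PAL2*, which deaminate phenylalanine (2.91 ± 0.53, adjusted p = 0.00646, and 1.99 ± 0.43, adjusted p = 0.013), the cinnamate hydroxylase *C4H* (2.08 ± 0.45) and the coumarate ligases *4CL2* (2.07 ± 0.40) and *4CL1* (1.70 ± 0.32). *4CL3*, the isoform associated with flavonoids, differed by -0.47 ± 0.33 and did not pass (adjusted p = 0.317). *PAL1* ranged over 184 to 749 CPM in *fer* controls, against 53.4 to 66.2 CPM in WT controls, so that the groups were far apart but the *fer* libraries spread widely. All 9 calls in this comparison held in each of 19 alternatives, although *PAL1* was at 1.63 without *fer* replicates 1 and 2.

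The other early and flavonol genes, among them the CHS-assisting *CHIL* and the *FLS1* paralogs, gave 0 calls among 4 tested in *fer* controls. Of 4 flavonol decoration genes tested, *OMT1*, a methyltransferase that also serves lignin synthesis, was higher (0.99 ± 0.22, adjusted p = 0.00853). Of the 8 anthocyanin decoration and transport genes only *BGLU10*, which adds a glucose to anthocyanins, passed the filter, and it was higher (1.70 ± 0.21, adjusted p = 2.94e-04), at 15.7 to 23.5 CPM in *fer* controls against 4.87 to 6.92 CPM in WT controls. Of the 8 genes, 5 had every *fer* control library above every WT control library, and 0 had every one below. The share above was 16.2% of all genes tested, which had all passed the filter. Besides *BGLU10*, the 5 included 4 genes with few counts that were below the filter. The 4 were named after their values were seen, so that their lack of overlap follows from the choice. These were the glucosyltransferase *UGT75C1* (1.33 to 4.24 CPM in *fer* controls, 0.487 to 0.692 CPM in WT controls), the transport protein *TT19* (2.22 to 7.88 CPM in *fer* controls, 0.371 to 1.96 CPM in WT controls), *UGT79B1* (0.665 to 1.82 CPM in *fer* controls, 0 to 0.371 CPM in WT controls) and the malonyltransferase *5MAT* (0.587 to 2.46 CPM in *fer* controls, 0 to 0.490 CPM in WT controls). Their WT control libraries held 0 to 8 counts each, and they were not tested. The proanthocyanidin branch had 1 gene above the filter, *TT15*, with no call.

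Among 8 activators tested in *fer* controls, the bZIP factor *HYH* was higher (2.01 ± 0.45, adjusted p = 0.011) and the B-box factor *BBX21* lower (-0.86 ± 0.12, adjusted p = 4.64e-04), and the other 6 did not pass, among them *MYB12* (0.88 ± 0.43), *MYB111* (-0.84 ± 0.46) and *TTG1* (0.29 ± 0.15). None of 9 repressors tested passed (-0.41 to 0.77). Under arabidopside A, 14 of 40 genes tested were higher in *fer* than in WT and 1 lower, against 17.2% and 14% of all genes tested. To the 5 entry genes, *OMT1*, *BGLU10*, *HYH* and *BBX21*, each called in the same direction, it added *MYB113*, *UGT78D2*, *FLS3*, *FLS5*, *MYB7* and *SPA1*. *FLS3* lost its call in 16 of 28 alternatives (0.62 ± 0.22, adjusted p = 0.044, and 0.051 to 0.274 in those 16), among them the omission of WT arabidopside replicate 2, 3 or 4, *fer* arabidopside replicate 1, 2 or 3, WT control replicate 2, 3 or 4, or *fer* control replicate 4. *UGT78D2* lost it without WT arabidopside replicate 2 (adjusted p = 0.057) or 4 (0.054), and *FLS5* without WT arabidopside replicate 2 (0.053) or *fer* arabidopside replicate 4 (0.051). *MYB113*, another relative of *PAP1*, had 2.05 to 10.7 CPM in *fer* arabidopside, 0.606 to 5.28 CPM in *fer* control, 0.579 to 1.34 CPM in WT arabidopside and 0 counts in all 4 WT controls. Its WT arabidopside libraries held only 3 to 5 counts each, so that it was measured mainly where it was high, and its call (3.22 ± 0.64, adjusted p = 0.00253) is given as a description. In the responses to arabidopside A in WT and in *fer* and in the interaction, 0 of 40 were called. The values nearest to the threshold in the WT response were those of the flavonol rhamnosyltransferase gene *UGT89C1* (0.79 ± 0.23, adjusted p = 0.116), *UGT75C1* (1.73 ± 0.52, adjusted p = 0.125) and *BGLU10* (0.66 ± 0.20, adjusted p = 0.128).

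Markers of organs differed with genotype as well. Summed over 9 shoot markers, *fer* controls had 6362 to 14167 CPM against 19789 to 23493 CPM in WT controls, with 6 of 9 lower and 1, *AN3*, higher. Summed over 9 root markers *fer* controls had 131 to 158 CPM against 106 to 139 CPM in WT controls, with overlap and with 1 of 8 tested higher, *RHD2*. The 6 seed storage markers summed to 0.444 to 4.11 CPM in *fer* controls and 7.63 to 21.3 CPM in WT controls, with *CRA1* lower, and no marker gene was at 0 throughout a group. Arabidopside A moved 0 of the markers tested in WT. The part of organ composition in the differences between *fer* and WT was not tested, and in whole seedlings fewer cells of a type and less RNA per cell cannot be told apart.

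The genes whose pattern over the 16 libraries was most like that of *CHS* and of *DFR*, by Pearson correlation of log2 CPM, were different ones. For *CHS* they were AT4G22810 (r = 0.92), AT2G04570 (0.91), AT3G24240 (0.89), the Aux/IAA gene *IAA5* (0.88) and the plastid lipoamide dehydrogenase gene *LPD1* (0.87), and among the members *CHI* was closest (0.79), with *FLS1* at 0.59. For *DFR* they were AT3G07090 (r = 0.94), AT1G54020 (0.90), the arginase gene *ARGAH2* (0.89), AT5G11230 (0.88) and AT3G28270 (0.88), and among the members *LDOX* was closest (0.84), then *PAP1* (0.73), *F3H* (0.68) and *PAP2* (0.62). *CHS* and *DFR* correlated at 0.16, and *FLS1* and *DFR* at -0.11. *ARGAH2* averaged 84.0 CPM in *fer* arabidopside, 55.6 CPM in *fer* control, 30.4 CPM in WT arabidopside and 9.48 CPM in WT control, the same order of groups as *DFR* (11.0 CPM in *fer* arabidopside, 7.89 in *fer* control, 5.07 in WT arabidopside and 2.58 in WT control). *ARGAH2* was picked for its correlation with *DFR*, so that the shared order largely follows from the choice. AT5G11230, picked likewise, averaged 26.9 CPM in *fer* control and 27.7 CPM in WT arabidopside. These values describe 16 libraries that share groups and the spread among *fer* replicates, and carry no test.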

How the data were processed

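Transcripts of whole seedlings were counted with Lexogen QuantSeq 3′ libraries, 50-base reads. The authors aligned the reads with STAR to TAIR10 and deposited raw counts per gene from HTSeq in intersection-nonempty mode. Versions and the strand setting are not given in the sources used here, and the values were not normalized. The methods state that libraries were sequenced in repeated runs, and the deposited table has 1 column per library. The study compared the seedling groups, but the method of that test is not named in the sources used here.

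Counts were fitted with edgeR 4.0.16 (TMM, filterByExpr, robust quasi-likelihood test, Benjamini-Hochberg adjustment over all genes tested, threshold 0.05, R 4.3.3). *fer* control against WT control used the 8 control libraries (17001 genes tested), and all other comparisons used all 16 libraries with 1 coefficient per group (18132 genes tested). CPM in the text come from the 16-library fit. The SE of a log2 fold change was taken from its size and its F statistic. Alternatives were DESeq2 1.42.0, limma-voom 3.58.1, other scalings and filters, thinning of the deepest library, replicate blocks and the omission of each library. The omission of *fer* replicates 1 and 2, or 3 and 4, was chosen after seeing the data. Simulated counts were fitted for *fer* control against WT control, the WT response and the interaction, by edgeR, limma-voom and DESeq2. The other comparisons and alternatives were not simulated.

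The design text calls the 4 libraries of a group biological replicates, without saying what was pooled. Duplicate libraries were looked for and not found. Same-numbered *fer* libraries correlated in their deviations from the group means (r = 0.61, 0.37, 0.19 and 0.37), which would pair the *fer* treatments by number. The main fits had no pairing term, and a block by replicate number was fitted only among the alternatives. Differently numbered libraries within replicates 1 and 2 or within 3 and 4 correlated as well (0.31 to 0.69), in places more strongly, and those between these sets correlated negatively (-0.62 to -0.20), so the sets and not the single numbers stood apart. In the other comparisons r lay between -0.09 and 0.01 for same-numbered libraries and between -0.073 and 0.096 for differently numbered ones. The pairing comes from the data and not from the labels.

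All 10 genes are named. From the lists of other pathway genes, up to 4 called genes with the largest change, or up to 2 of the highest level where none passed, were to be named, and a few more were named for their values. The members and lists were chosen with earlier results of these data known. Promoters, overlaps and repeated 50-base stretches were read from RefSeq TAIR10.1, in which 32548 of the 32833 gene identifiers matched, and no coordinates of the count table were used.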

Additional observations from a re-analysis of the deposited data

Results flagged for a closer look

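Within the groups of 4 libraries, 44 sets of values of the 10 genes and their ratios were examined for a library far from the other 3, and chance alone would mark about 1 in 20. *F3H* in *fer* control was low in replicate 3, at 32.38 CPM, against 47.9 to 50.7 CPM in the other libraries of the group. *PAP2* in *fer* arabidopside was low in replicate 1, at 3.498 CPM, against 5.41 to 5.73 CPM in the others.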

How the results depend on the processing

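The higher *DFR* and *LDOX* in *fer* control than in WT control kept direction and call in every alternative that tested them. The number of members called there was 3, and 1 (*F3H*) with at least 10 counts required in every library, a filter that removes *DFR* and *LDOX*. It was 2 to 4 in all other alternatives and on leaving out single libraries, with *F3H* lost in 9 of 19 (adjusted p = 0.068 by library size only and 0.108 by upper quartile, among others). Without *fer* replicates 1 and 2 the 4 called were *DFR* and *LDOX*, higher, and *CHS* and *FLS1*, lower. In WT arabidopside against WT control it was 1, but 0 with that filter, 0 with limma-voom, 2 with only the 8 libraries compared and 0 to 1 on leaving out single libraries. In *fer* arabidopside against WT arabidopside it was 2, but 0 with that filter, 0 without *fer* replicates 1 and 2, and 0 to 2 on leaving out single libraries. It was 0 in all alternatives in the *fer* response and the interaction. With the replicate number as a block, for the pairing of the *fer* libraries, members called numbered 3 in *fer* control against WT control, 1 in the WT response, 2 in *fer* arabidopside against WT arabidopside and 0 in the *fer* response and the interaction, as without the block, and no member changed its call. Differences that turned sign were all uncalled in the fit with all libraries. Without *fer* replicates 3 and 4, these log2 differences were 0.23 for *CHS*, 0.060 for *CHI* and 0.11 for *FLS1* in *fer* control against WT control, -0.036 for *CHS* and -0.39 for *FLS1* in the *fer* response, and -0.036 for *FLS1*, 0.077 for *DFR* and 0.13 for *PAP2* in the interaction. Without *fer* replicates 1 and 2 they were 0.080 for *F3H*, -0.24 for *DFR* and -0.41 for *LDOX* in the *fer* response, and -0.15 for *CHS* and -0.57 for *PAP1* in *fer* arabidopside against WT arabidopside. On leaving out single libraries, *CHS* ranged over -0.32 to 0.082 in *fer* control against WT control. In the *fer* response the ranges were -0.12 to 0.26 for *CHS*, -0.22 to 0.048 for *F3H*, -0.15 to 0.26 for *FLS1*, -0.00135 to 0.48 for *LDOX* and -0.012 to 0.87 for *PAP1*. They were -0.016 to 0.30 for *CHS* and -0.27 to 0.33 for *PAP1* in *fer* arabidopside against WT arabidopside, and -0.47 to 0.22 for *PAP2* in the interaction. The causes were not tested. Of 131 alternative counts of members called, 114 stayed within 1.5 times the main count and 17 did not. The 114 include every alternative of the *fer* response and the interaction, where all counts were 0. All 17 that moved belonged to the comparisons with a main count above 0. Depth limits the low genes most, since *TT8*, *F3'H* and, in WT control, *PAP1* rest on few counts per library. In WT control *DFR* and *LDOX* were low as well, at 9 to 17 and 8 to 14 counts per library.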
